A study of Mus musculus with 12 samples.

Results

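Collagen and laminin genes were taken as all genes whose mouse symbol has the form Col, number, a, number, which are the collagen chains, or Lama, Lamb or Lamc followed by a number, which are the laminin chains. Reads of all RefSeq transcript entries with the same symbol were summed, and 55 of the resulting 24209 genes met this rule, 44 collagen and 11 laminin chains. The RNA came from whole hippocampi of male C57BL/6 mice, 12 in all, with 3 sponge and 3 control animals in each of 2 experiments. GFP-miR-9sp mice 17, 23 and 9 were set against GFP Ctrl mice 16, 2 and 8 (the miR-9 experiment), and GFP-miR-34sp mice 13, 18 and 3 against other GFP Ctrl mice, numbered 10, 4 and 8 (the miR-34 experiment). Equal numbers name different mice in the different experiments. All mice, controls included, received an intrahippocampal AAV vector at an age of 10 weeks and were sampled 10 weeks later. Every vector expressed GFP from the human synapsin promoter, which is active in neurons, and the sponge vectors added a series of sites that bind 1 miRNA family. The control vector carried no sponge.

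Collagens are trimers of chains wound into a triple helix. Fibrillar collagens form the fibrils of connective tissue, collagen IV forms the network of basement membranes, and the remaining collagens decorate fibrils, form microfibrils or short-chain networks, or span the cell membrane. Laminins are cross-shaped trimers of an alpha, a beta and a gamma chain and are the other main polymer of basement membranes. In the brain these proteins are known mainly from blood vessels, meninges and choroid plexus, which a neuron-specific promoter does not target. In tissue RNA, fewer cells of a type and less RNA per cell cannot be told apart. The labels name hippocampal neurons as the cell type, but summed markers of astrocytes reached 30569 to 50449 scaled reads and those of endothelium 5205 to 8813 scaled reads per mouse, so other cells contributed RNA.

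Scaled reads are the deposited counts multiplied by the mean total of the experiment and divided by the mouse's own total. Each mouse of the miR-9 experiment had 17279620 to 24428477 reads and each of the miR-34 experiment 11029604 to 16934133, so low chains were counted with less precision in the latter. A gene was tested when its mean over the 6 mice exceeded 10 scaled reads. Markers of other tissue differed between mice, those of choroid plexus by the widest margin. The 15 choroid plexus markers summed to 8950, 27723 and 32709 scaled reads in GFP Ctrl mice 10, 4 and 8 of the miR-34 experiment, against 2257, 1118 and 2057 in GFP-miR-34sp mice 13, 18 and 3. In the miR-9 experiment they were high in 1 mouse of each group, with 19283 in GFP-miR-9sp mouse 17 and 16079 in GFP Ctrl mouse 2 against 1355 to 6412 in the other 4 mice. Ttr, the transthyretin gene that is the most abundant marker of choroid plexus epithelium, was at 7523, 23546 and 28418 scaled reads in the miR-34 experiment's controls and at 361 to 1338 after GFP-miR-34sp, whereas Folr1 (4 entries) was listed at 0 in all mice. Other marker sums differed less. In the miR-9 experiment, thalamus and habenula markers summed to 1936 to 2766 scaled reads in controls and 1875 to 1887 after GFP-miR-9sp, and microglia markers to 13327 to 13713 and 12294 to 13061, both without overlap. In the miR-34 experiment, mural cell markers summed to 3305 to 3878 scaled reads in controls and 3159 to 3235 after GFP-miR-34sp, also without overlap. The part of these marker tissues in the values of the chains was not tested.

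A miRNA recognises its targets through its seed, bases 2 to 8, which is why the sequences below are shown with the seed in capitals. They are the RefSeq mature forms with positions on GRCm38.p6. miR-9-5p is produced by 3 genes on chromosomes 3, 13 and 7 with identical mature sequence, and miR-34a-5p (chromosome 4) and miR-34b-5p (chromosome 9) share 1 seed.
miR-9-5p: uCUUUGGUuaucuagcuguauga
miR-34a-5p: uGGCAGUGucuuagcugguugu
miR-34b-5p: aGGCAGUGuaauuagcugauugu

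Perfect matches to these seeds followed by A, ACCAAAGA for miR-9 and CACTGCCA for miR-34, were searched on the sense strand of 1 annotated 3′ UTR per gene, the longest that GENCODE M1 gives (mm9). Among tested genes of the miR-9 experiment with an annotated 3′ UTR, 4.44% of 10736 held the miR-9 match, and 2 of 44 collagen and laminin genes did, which is 4.55%. In the miR-34 experiment, 6.08% of 10326 genes held the miR-34 match and 3 of 43 collagen and laminin genes did, which is 6.98%. The chains were thus neither richer nor poorer in such sites than the remaining genes by more than 1 gene. The sites in tested chains are printed with the match in capitals. Shorter matches and other annotated UTRs were not searched.
Col15a1 (miR-9, chr4:47325282-47325310, plus strand): tcaaaagagaaACCAAAGAaaacatacct
Col27a1 (miR-9, chr4:62994529-62994557, plus strand): cccaagaaccaACCAAAGAgccagtcaaa
Col4a3 (miR-34, chr1:82718201-82718229, plus strand): actagcacaggCACTGCCAcataaataca
Col4a4 (miR-34, chr1:82449089-82449117, minus strand): caacctttctaCACTGCCAgcattagcag
Col6a2 (miR-34, chr10:76061678-76061706, minus strand): ttaaaggcatgCACTGCCAtgccccactt

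Col9a1, which was not tested, also held a miR-9 match. A match is a description of letters and not a measured site. With the matching sponge the log2 fold changes were -0.23 for Col15a1 and 0.04 for Col27a1 after GFP-miR-9sp, and -1.20 for Col4a3, -0.77 for Col4a4 and -0.18 for Col6a2 after GFP-miR-34sp. None of the 5 chains with a match was higher at an unadjusted p under 0.05 with the matching sponge.

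The hippocampus held a wide range of these chains. Per kilobase of transcript, Col4a1, Col4a2, Lamb1 and Col6a1 were highest in both experiments. Other chains of collagen IV, laminin and collagen VI lay further down the order, some of them near its end. In GFP Ctrl mice of the miR-9 experiment the order was headed by Col6a1, a microfibril collagen chain, at 452 ± 96.9 scaled reads per kilobase (SD, n = 3), Col4a2 at 383 ± 23.9 and Col4a1 at 313 ± 19, the chains of the common collagen IV trimer, then Lamb1 at 224 ± 18.4, Lamb2 at 181 ± 14.5 and Lamc1 at 160 ± 0.815, which are beta and gamma chains of laminin. The ranges of Col6a1 and Col4a2 overlapped, whereas those of Col4a2, Col4a1, Lamb1, Lamb2 and Lamc1 did not overlap between neighbours. In GFP Ctrl mice of the miR-34 experiment Col4a2 (186 ± 20.5), Col4a1 (163 ± 11.1), Lamb1 (159 ± 11.1) and Col6a1 (157 ± 41.8) led, and each overlapped the next. The highest fibrillar chains were Col11a2 at 144 ± 5.97, Col1a2 at 120 ± 18.9 and Col5a1 at 120 ± 23.2 per kilobase in the miR-9 experiment. Col4a3 and Col4a4, known from the glomerular basement membrane, were among the lowest tested chains in both experiments, at 3.04 ± 1.85 and 3.16 ± 0.804 per kilobase in the first and 3.35 ± 1.36 and 3.51 ± 0.28 in the second.

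**Figure D1:**
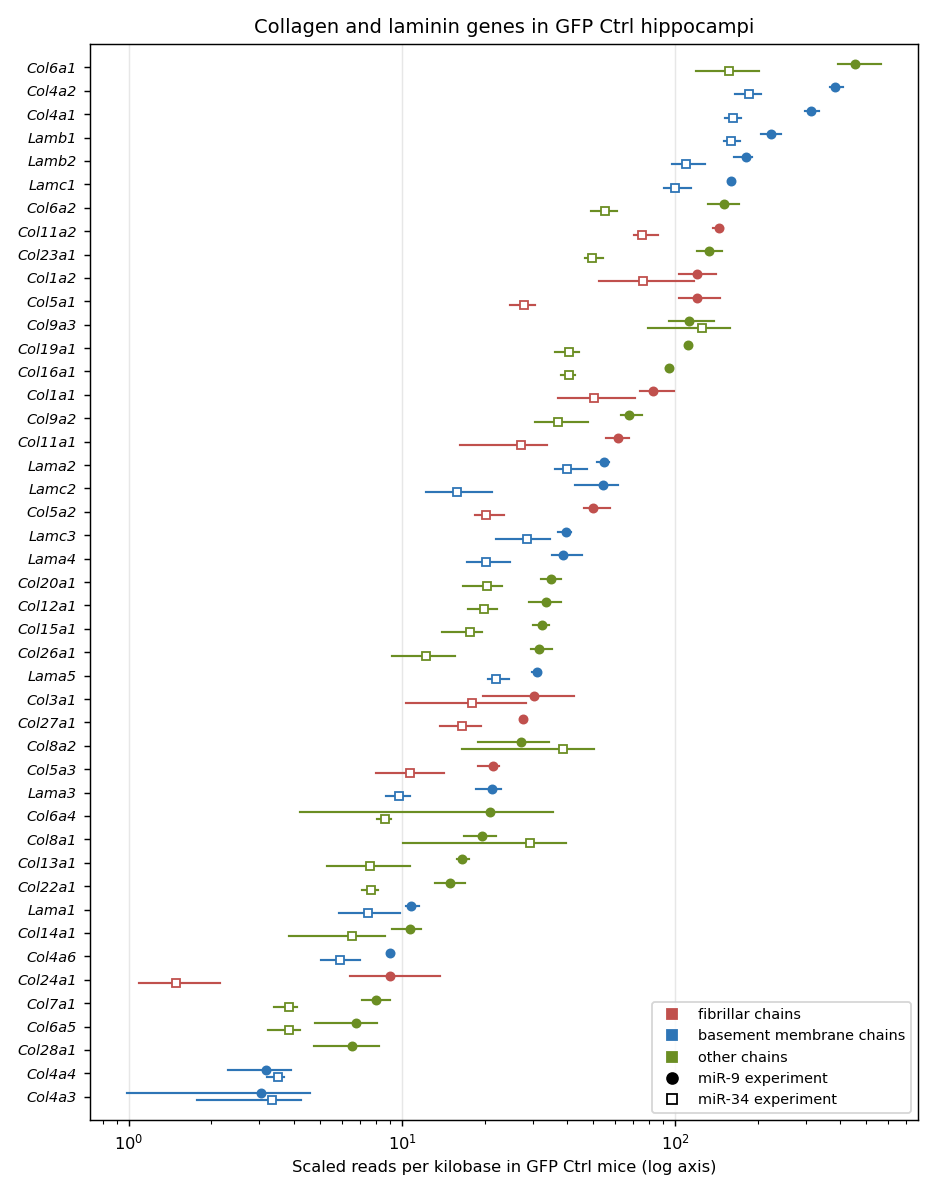
Level of every tested collagen and laminin gene in GFP Ctrl mice, as scaled reads per kilobase on a log axis, with points for the mean and lines from the lowest to the highest of 3 mice. Each experiment is scaled to its own mean total, so values are comparable within an experiment, and Col6a1, Col4a2, Col4a1 and Lamb1 head both orders.

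Basement membrane chains held the largest share of the counted reads of the 3 classes. The 55 genes include 9 with 2 or more RefSeq entries, whose low values were not taken as low levels. Of these, Col6a3, Col6a6, Col9a1, Col17a1, Col18a1 and Col25a1 are other chains, Col4a5 and Lamb3 basement membrane chains, and Col2a1 a fibrillar chain. The percentages thus describe counted reads, and a share of the other chains may be too low by an unknown amount. In the GFP Ctrl mice of the miR-9 experiment the 17 basement membrane chains held 47.9 ± 1.66% of all reads on the 55 genes, the 11 fibrillar chains 19.7 ± 0.611% and the 27 other chains 32.3 ± 1.67%. After GFP-miR-9sp these shares were 49.3 ± 4.44%, 18.9 ± 1.57% and 31.8 ± 2.89%. In the miR-34 experiment they were 53.1 ± 0.863%, 17.4 ± 0.849% and 29.4 ± 0.731% in controls and 54.7 ± 1.81%, 18.1 ± 0.708% and 27.2 ± 1.92% after GFP-miR-34sp. Ranges of the single mice overlapped between sponge and control for fibrillar and basement membrane chains in both experiments. For the other chains in the miR-34 experiment the sponge mice held 25 to 28.4% and the controls 28.7 to 30.2%, without overlap. Together the 55 genes summed to 21157 ± 1223 scaled reads in controls and 20685 ± 2370 in sponge mice of the miR-9 experiment, and to 11014 ± 675 and 10456 ± 604 in those of the miR-34 experiment, with overlapping ranges in both.

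Chains that assemble together differed in how constant their ratios were. Col4a1 and Col4a2 are transcribed head to head on chromosome 8, and on mm9 their annotated genes overlap by 22 bases at their starts. The ratio of Col4a2 to Col4a1 per kilobase lay between 1.2 and 1.28 in all 6 mice of the first and between 1.09 and 1.25 in those of the second experiment. Within these narrow ranges the groups did not overlap. Controls lay at 1.2 to 1.24 and sponge mice at 1.25 to 1.28 in the miR-9 experiment. In the miR-34 experiment controls lay at 1.09 to 1.18 and sponge mice at 1.2 to 1.25. A difference in this ratio was not tested. With 3 against 3 mice, an exact permutation test cannot give a p below 0.1. The 300 bases around the Col4a2 start (RefSeq, chr8:11312555-11312854 on GRCm38.p6, plus strand) are shown because both genes start within them, with the 78 bases that also lie in the corresponding window of Col4a1 in capitals.
Col4a2 promoter: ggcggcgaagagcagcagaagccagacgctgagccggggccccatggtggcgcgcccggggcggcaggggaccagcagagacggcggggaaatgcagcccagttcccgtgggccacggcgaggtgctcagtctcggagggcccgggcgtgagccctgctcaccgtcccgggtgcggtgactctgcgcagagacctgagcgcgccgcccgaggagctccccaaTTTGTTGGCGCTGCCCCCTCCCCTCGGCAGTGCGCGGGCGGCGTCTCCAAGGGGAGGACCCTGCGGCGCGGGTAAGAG

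Col4a4 and Col4a3 have the same arrangement on chromosome 1, with 71 bases between them, and their ratio was far more variable, 0.34 to 1.41 for Col4a3 to Col4a4 over the 12 mice, at the low read numbers given below. For collagen I, the ratio of Col1a2 to Col1a1 was 1.46 ± 0.114 in controls and 1.37 ± 0.285 in sponge mice of the miR-9 experiment, and 1.47 ± 0.164 and 1.28 ± 0.0534 in those of the miR-34 experiment. The groups overlapped in the miR-9 experiment. In the miR-34 experiment controls lay at 1.34 to 1.65 and sponge mice at 1.22 to 1.33, without overlap. Col9a3 to Col9a2 lay at 2.58 to 4.82 in controls and 2.07 to 2.45 in sponge mice of that experiment, also without overlap. In the miR-9 experiment the groups overlapped for this ratio. Col8a2 to Col8a1, Col6a1 to Col6a2, Lamb1 to Lamb2 and Lama2 to Lama5 were formed too, and their groups overlapped in both experiments. Among laminins, Lamc1 to Lamb1 was 0.718 ± 0.0567 and 0.738 ± 0.0177 in the first and 0.629 ± 0.0998 and 0.633 ± 0.0288 in the second experiment, so the sponge and control means lay within 1 SD of the controls.

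Some chains could not be assessed. Of the 46 genes with a single RefSeq entry, 45 were tested in the miR-9 and 44 in the miR-34 experiment, and Col10a1 in both and Col28a1 in the miR-34 experiment were too low. All 9 genes with 2 or more entries stayed below the limit, with means of at most 9.89 scaled reads in the miR-9 and 6.33 in the miR-34 experiment. They were Col2a1, Col4a5, Col6a3, Col6a6, Col9a1, Col17a1, Col18a1, Col25a1 and Lamb3. Across all genes, 57.9% of those with 1 entry and 37.2% of those with more were tested in the miR-9 experiment, and 56.2% and 32.5% in the miR-34 experiment. How reads shared between entries were counted is not given in the sources used here, so a low value of these 9 chains was not taken as a low level. Just inside and just outside the limit were Col4a4 (25.4) and Col6a6 (9.89) in the miR-9 experiment and Col24a1 (11.8) and Col28a1 (8.85) in the miR-34 experiment.

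The miR-9 comparison asked which chains differ when miR-9 is bound by a sponge in neurons. No collagen or laminin gene passed an adjusted p of 0.05 in edgeR, where 0% of all 13045 tested genes did. At an unadjusted p under 0.05, 1 of 45 tested chains (2.22%) was called, against 4.73% of all tested genes. It was lower (2.22% against 2.26%), and 0 chains were higher (0% against 2.47%). DESeq2 gave 0 chains at an adjusted p under 0.05 (0.0153% of all genes) and 0 higher and 0 lower at an unadjusted p under 0.05 (1.32% and 0.905%). The study's criterion, applied here to reads summed per symbol, also gave 0 higher and 0 lower chains (0.466% and 0.971%). That chain was Col15a1, a multiplexin found in vascular basement membrane zones. It measured 160, 176 and 183 scaled reads in GFP Ctrl mice 16, 2 and 8 and 153, 135 and 146 in GFP-miR-9sp mice 17, 23 and 9. The groups did not overlap, as for 7.86% of all tested genes in this direction and 3.11% in the other, and the log2 fold change was -0.23 (SE 0.10; edgeR unadjusted p = 0.0432, adjusted p = 0.97). The call depended on single mice. In edgeR its unadjusted p was 0.112 without GFP-miR-9sp mouse 23 and 0.08 without GFP-miR-9sp mouse 9. Without GFP Ctrl mouse 2 it was 0.0968 and without GFP Ctrl mouse 8 it was 0.133. Col15a1 is one of the 2 tested chains with a miR-9 seed match shown above, and its value was lower with the sponge. After GFP-miR-34sp, for which it held no match, its log2 fold change was -0.24 (SE 0.17).

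The other chains with the smallest p in the miR-9 experiment had overlapping groups. Col7a1, the anchoring fibril collagen, measured 72.6, 82.7 and 65.8 in controls and 102, 73.5 and 89.4 in sponge mice (log2 fold change 0.28, SE 0.16). Col5a1, a regulator of fibril diameter, measured 927, 862 and 1227 in controls and 933, 701 and 926 in sponge mice (-0.21, SE 0.13). Col26a1 measured 81.7, 79.9 and 95.5 against 73, 60.7 and 80.9 (-0.23, SE 0.15). For each of these 3 chains at least 1 sponge mouse lay within the control range. Col22a1 (0.23, SE 0.16), Col11a2 (-0.09, SE 0.06), Lama3 (0.16, SE 0.12) and Lama4 (-0.15, SE 0.12) completed the list, all with an adjusted p of 0.97 in edgeR. The chains of the common collagen IV trimer had the smallest errors. Col4a1 was at 1962, 2208 and 2037 scaled reads in controls and 2011, 1912 and 2129 in sponge mice, a log2 fold change of -0.01 with an SE of 0.05, and Col4a2 had 0.03 with an SE of 0.05.

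By class, the median log2 fold change after GFP-miR-9sp was -0.05 over 10 fibrillar chains, 0.06 over 15 basement membrane chains and 0.01 over 20 other chains, against 0.00 over all tested genes. Leaving out 1 mouse changed the sign of the fibrillar median (-0.14 to 0.06) and of the median of the other chains (-0.15 to 0.11), and gave 0.00 to 0.07 for basement membrane chains. Without the mouse of each group with the highest choroid plexus sum, 0 chains passed the adjusted limit in edgeR (0.00769% of all genes), Col22a1 was higher (2.22% against 3.1%) and Col5a1, Col8a1 and Col9a3 were lower (6.67% against 2.93%) at an unadjusted p under 0.05. In all, 19 of the 45 chains (42.2%) had a log2 fold change below 0, against 50.3% of all tested genes.

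**Figure D2:**
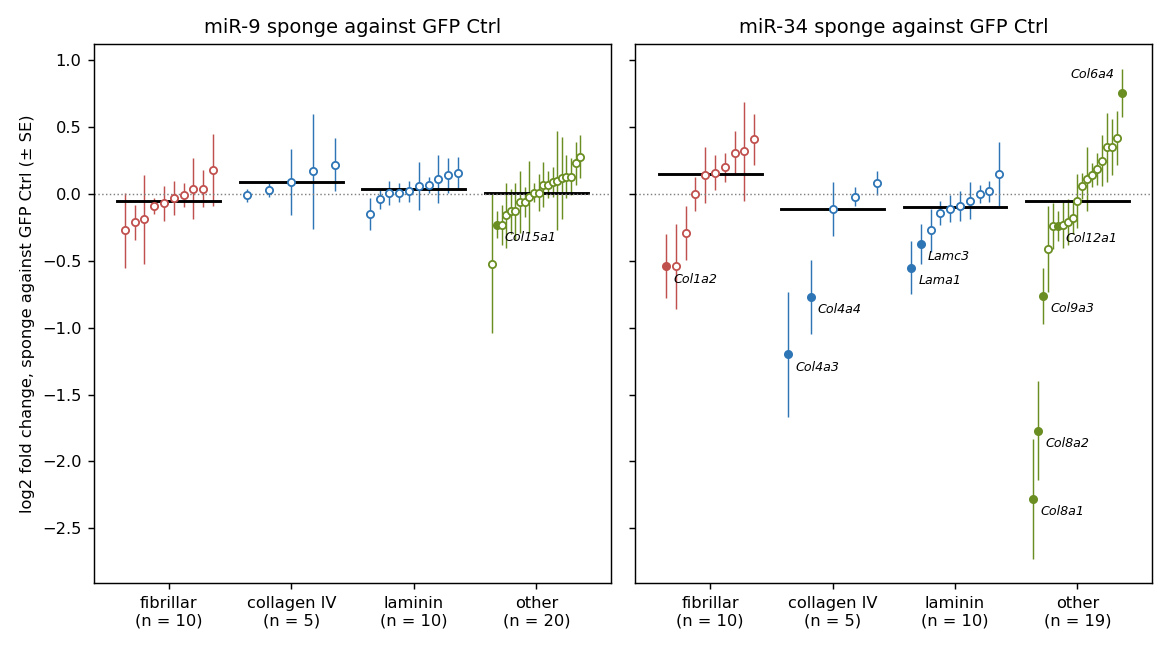
Log2 fold change of every tested chain, sponge against GFP Ctrl, with 1 SE (edgeR), grouped as fibrillar, collagen IV, laminin and other chains, with black lines for class medians and filled, named points for an unadjusted p under 0.05. The miR-9 panel has 1 filled point and the miR-34 panel 10, of which Col8a1 and Col8a2 lie lowest.

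The miR-34 comparison gave a different picture for a subset of the chains. No chain passed an adjusted p of 0.05 in edgeR, where 0.064% of 12492 tested genes did. At an unadjusted p under 0.05, however, 10 of 44 tested chains (22.7%) were called against 6.43% of all genes. Of these, 9 were lower after GFP-miR-34sp (20.5% against 3.72%) and 1 was higher (2.27% against 2.71%). Groups did not overlap for 4 lower chains (9.09% against 5.43% of all genes) and 2 higher chains (4.55% against 6.2%). With DESeq2, 0 chains had an adjusted p under 0.05 (0.288% of all genes), 6 were lower (13.6% against 1.99%) and 1 was higher (2.27% against 1.09%) at an unadjusted p under 0.05. By the study's criterion, an unadjusted p under 0.05 with a ratio above 1.2 or below its reciprocal, Col4a4 alone was lower (2.27% against 1.21%) and Col6a4 alone higher (2.27% against 0.784%).

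The short-chain collagens Col8a1 and Col8a2, which build the hexagonal network of Descemet's membrane in the cornea and occur in vessel walls, differed most. Col8a1 measured 51.7, 204 and 194 scaled reads in GFP Ctrl mice 10, 4 and 8 and 40.1, 25.8 and 22.5 in GFP-miR-34sp mice 13, 18 and 3. All sponge mice were below all controls, with control mouse 10 close to the sponge mice and the other controls far above them. The log2 fold change was -2.28 (SE 0.45; edgeR unadjusted p = 0.000331, adjusted p = 0.171). Col8a2 measured 71.7, 213 and 219 in the same controls and 42.4, 37 and 66.6 in the sponge mice, again with control mouse 10 the lowest control and without overlap. Its log2 fold change was -1.77 (SE 0.37; edgeR unadjusted p = 0.000545, adjusted p = 0.206). In the miR-9 experiment Col8a1 was highest in GFP-miR-9sp mouse 17, at 187 against 52.5 and 72.5 in the other sponge mice and 85.8, 102 and 112 in controls 16, 2 and 8. Col8a2 was also highest in mouse 17, at 190 against 68.8 and 118, with 122, 148 and 81.7 in the controls. Mouse 17 had the highest sum of choroid plexus markers of that experiment. GFP Ctrl mouse 2, with the next highest sum, was the highest control for Col8a2 but not for Col8a1, for which control mouse 8 was higher.

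Both genes were lower in all sponge mice than in all controls of the miR-34 experiment. Within the groups their order differed, as sponge mouse 3 was lowest for Col8a1 but the highest sponge mouse for Col8a2. Their promoters (RefSeq, GRCm38.p6, 250 bases before to 50 after the start) are printed, with matches to the GC box GGGCGG on either strand in capitals. Each promoter held 4 matches, and in Col8a2 the last 2 overlap. The GC box was found in 35.7% of all 32851 promoters and in 25 of the 40 collagen and laminin genes with a promoter in the table, so it does not set this pair apart. Neither promoter held CCAAT (37.4% of all promoters) or TATAAA (13.6%).
Col8a1 promoter (chr16:57754688-57754987, minus strand): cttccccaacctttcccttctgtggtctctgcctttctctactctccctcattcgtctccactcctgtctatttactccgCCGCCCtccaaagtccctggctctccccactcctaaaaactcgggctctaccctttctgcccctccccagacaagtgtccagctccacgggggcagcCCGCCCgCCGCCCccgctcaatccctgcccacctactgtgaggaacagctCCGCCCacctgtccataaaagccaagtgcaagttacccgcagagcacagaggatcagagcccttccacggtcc
Col8a2 promoter (chr4:126286544-126286843, plus strand): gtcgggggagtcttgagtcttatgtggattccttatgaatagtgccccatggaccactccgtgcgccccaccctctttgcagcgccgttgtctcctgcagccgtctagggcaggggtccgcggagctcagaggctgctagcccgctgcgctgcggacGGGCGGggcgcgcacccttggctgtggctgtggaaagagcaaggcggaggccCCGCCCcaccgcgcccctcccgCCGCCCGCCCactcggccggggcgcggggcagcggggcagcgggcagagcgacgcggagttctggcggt

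Col9a3, a chain of the fibril-associated collagen IX, showed the same split among the controls. It measured 225, 450 and 396 scaled reads in GFP Ctrl mice 10, 4 and 8 and 208, 178 and 241 after GFP-miR-34sp, and the groups overlapped through control mouse 10. The log2 fold change was -0.76 (SE 0.21; edgeR adjusted p = 0.467). Exons of Col9a3 overlap those of Tcfl5 on the opposite strand by 234 bases, and the sources used here do not say whether counting used strand. The related Col9a2 measured 84.2, 90 and 131 against 85.6, 83 and 95 (-0.21, SE 0.17), so the chains of this collagen did not differ equally. Col12a1, another fibril-associated collagen, measured 235, 204 and 260 against 213, 195 and 184 (-0.24, SE 0.11; edgeR adjusted p = 0.769).

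Within the basement membrane class, 4 of 15 tested chains were lower at an unadjusted p under 0.05 and 0 were higher, against 3.72% and 2.71% of all tested genes. Col4a4 measured 24.9, 28.4 and 28.8 scaled reads in GFP Ctrl mice 10, 4 and 8 and 12.3, 12.3 and 23.5 in sponge mice 13, 18 and 3 (log2 fold change -0.77, SE 0.28; edgeR adjusted p = 0.671). Here control mouse 10 was close to the other controls, and the groups did not overlap. Col4a3 measured 15.3, 36.7 and 34.4 against 4.63, 11.2 and 22.5 (-1.20, SE 0.47; edgeR adjusted p = 0.709), with overlapping groups and few reads in each mouse. The dominant collagen IV chains stood apart from this pair. Col4a1 measured 1074, 1152 and 1005 against 1133, 936 and 1118 (-0.02, SE 0.07), and Col4a2 had a log2 fold change of 0.08 (SE 0.09). Col4a6 measured 33.5, 37.9 and 46.6 against 38.6, 30.3 and 39.2 (-0.11, SE 0.20).

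Among laminins, Lama1, the alpha chain best known from the earliest embryonic basement membranes and from the meninges, measured 66, 55.7 and 93.2 in controls 10, 4 and 8 and 44.7, 50.5 and 52.9 in sponge mice. The groups did not overlap, and the log2 fold change was -0.55 (SE 0.20; edgeR adjusted p = 0.671). Lamc3, a gamma chain, measured 131, 173 and 206 against 140, 121 and 129 (-0.37, SE 0.15; edgeR adjusted p = 0.72), with control mouse 10 inside the sponge range. The abundant chains Lamb1 (0.00, SE 0.07), Lamc1 (0.02, SE 0.08) and Lamb2 (-0.11, SE 0.10) had small values with small errors, and the vascular chain Lama4 measured 104, 113 and 150 against 94.9, 93.1 and 116 (-0.27, SE 0.16).

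Of the fibrillar chains, 1 of 10 was lower and 0 were higher at an unadjusted p under 0.05, against 3.72% and 2.71% of all tested genes, a difference of less than 1 chain. Col1a2, a chain of the main fibril collagen of connective tissue, measured 269, 301 and 602 in GFP Ctrl mice 10, 4 and 8 and 276, 250 and 278 after GFP-miR-34sp (-0.54, SE 0.24; edgeR adjusted p = 0.769). Its partners in collagen I and III fibrils followed the same mouse. Col1a1 measured 174, 205 and 333 against 206, 172 and 200, and Col3a1 57.4, 85.3 and 158 against 74.8, 47.1 and 80.3. In all 3 chains control mouse 8 was the highest of the 6 mice and control mouse 10 lay within or close to the sponge range. The 12 markers of meningeal and perivascular fibroblasts also summed highest in that mouse, at 2492 scaled reads against 1153 and 1174 in the other controls and 1105 to 1200 in the sponge mice, and 5 of 11 tested were lower at an unadjusted p under 0.05, against 3.72% of all tested genes. Of these 11 markers, 10 had a log2 fold change below 0, with a median of -0.54. Lum measured 110, 90 and 128 against 81.8, 66.2 and 75.4, without overlap (-0.55, SE 0.15). Slc6a13 measured 164, 136 and 313 against 113, 135 and 165, with overlap (-0.59, SE 0.26). Dcn, another defining marker of such fibroblasts, was the exception, at 56.4, 35.5 and 55.5 against 46.3, 66.2 and 39.2 (0.01, SE 0.24). Without control mouse 8 the log2 fold change of Col1a2 was -0.08 (SE 0.09; edgeR unadjusted p = 0.386). The other fibrillar chains had log2 fold changes from 0.00 (Col27a1) to 0.41 (Col5a3), with Col5a1 at 0.31 (SE 0.16) and Col11a2 at 0.20 (SE 0.11), and none passed the limit.

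Col6a4, a collagen VI chain, was the only chain higher at an unadjusted p under 0.05 after GFP-miR-34sp. It measured 65, 67.5 and 59.9 in GFP Ctrl mice 10, 4 and 8 and 123, 79.6 and 120 in sponge mice 13, 18 and 3, without overlap, a log2 fold change of 0.76 (SE 0.18; edgeR unadjusted p = 0.0011, adjusted p = 0.292). In 1 model of all 12 mice the log2 fold change was also 0.76 but the unadjusted p was 0.144 in edgeR, so the call was lost. In the miR-9 experiment the same gene varied more among the controls than between groups, with 31.4, 266 and 172 in GFP Ctrl mice 16, 2 and 8 and 108, 110 and 99.9 in the sponge mice (-0.52, SE 0.52). Its neighbour on chromosome 9, the related Col6a5, lies 28810 bases from it and measured 39.2, 37.9 and 30 against 32.4, 31.4 and 52.9 in the miR-34 experiment. The common collagen VI chains Col6a1 (-0.23, SE 0.17) and Col6a2 (-0.18, SE 0.12) had values in the other direction. Col7a1 did not overlap either, with 37.3, 37.9 and 31.1 in controls and 40.9, 43.7 and 58.8 in sponge mice (0.42, SE 0.20; edgeR unadjusted p = 0.0594, adjusted p = 0.791).

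**Figure D3:**
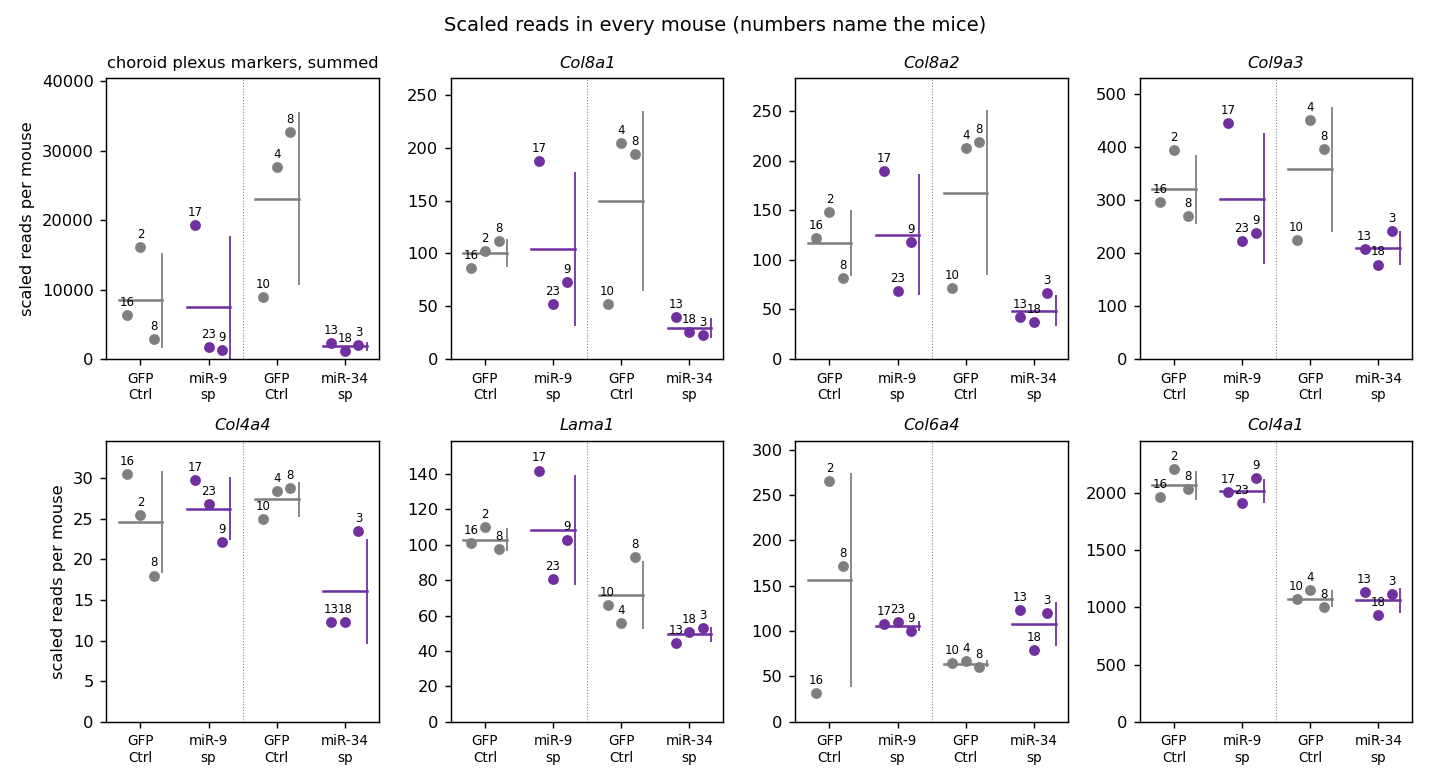
Scaled reads of the summed choroid plexus markers and of 7 chains in every mouse, named by number, with the mean (horizontal line) and SD (vertical line, drawn no lower than 0) of the 3 mice of a group. Control mice 4 and 8 of the miR-34 experiment and sponge mouse 17 of the miR-9 experiment are high for the markers, Col8a1, Col8a2 and Col9a3. GFP Ctrl mouse 2 of the miR-9 experiment is high for the markers but not the highest control for Col8a1.

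The markers of choroid plexus moved with the miR-34 groups. All 13 tested markers of that list were lower at an unadjusted p under 0.05 in edgeR, against 3.72% of all tested genes. Of them, 5 had an adjusted p under 0.05, as did 8 of all 12492 tested genes (0.064%). Ttr had a log2 fold change of -4.34 (SE 0.49; edgeR adjusted p = 0.0278). Without GFP Ctrl mice 4 and 8, the 2 mice with the highest sums, only control mouse 10 remained, which was assumed to vary like the sponge mice. In that fit 0 chains passed the adjusted limit (0.00796% of all genes), 2 chains were lower at an unadjusted p under 0.05 (4.55% against 2.7% of all genes), Col8a1 and Col6a1, and 3 were higher (6.82% against 2.32%), Col6a4, Col5a3 and Col26a1. Col8a1 then had a log2 fold change of -0.78 (SE 0.32; edgeR unadjusted p = 0.0334), Col8a2 of -0.57 (SE 0.29), Col9a3 of -0.11 (SE 0.15), Col4a3 of -0.33 (SE 0.64) and Lamc3 of -0.01 (SE 0.16). Col6a4 was at 0.74 (SE 0.25), Col4a4 at -0.65 (SE 0.42; edgeR unadjusted p = 0.148) and Lama1 at -0.43 (SE 0.23; edgeR unadjusted p = 0.0798), so the calls of Col4a4 and Lama1 were lost. Without control mouse 8 alone Lama1 was at -0.32 (SE 0.19; edgeR unadjusted p = 0.111). Without control mouse 10, the control with the lowest sum, Col8a1 (-2.71, SE 0.20, adjusted p = 4.04e-05 in edgeR), Col8a2 (-2.15, SE 0.19, adjusted p = 0.000208) and Col9a3 (-1.01, SE 0.11, adjusted p = 0.00168) passed the adjusted limit, as did 0.457% of all genes, with 13 chains lower (29.5% against 4.8%) and 1 higher (2.27% against 2.77%) at an unadjusted p under 0.05. Without control mouse 8, 5 chains were lower (11.4% against 3.12%) and 3 higher (6.82% against 2.73%), and 0 passed the adjusted limit (0.00799% of all genes) in edgeR. How much of each difference the marker tissue accounts for was not tested.

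**Figure D4:**
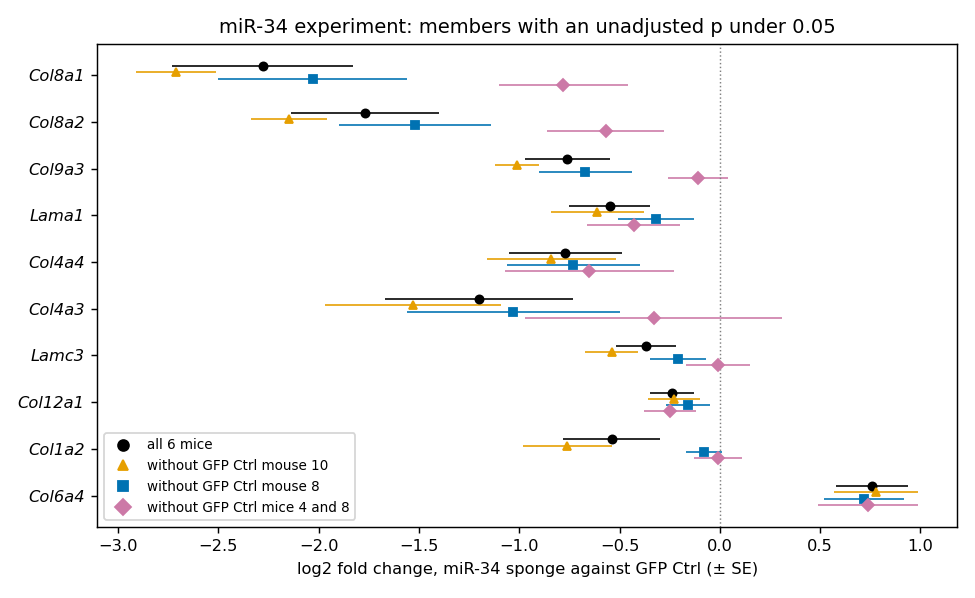
Log2 fold change with 1 SE (edgeR) of the 10 chains called in the miR-34 experiment, from all 6 mice and with GFP Ctrl mice left out. Col8a1, Col8a2, Col9a3, Col4a3, Lamc3 and Col1a2 move towards 0 without control mice 4 and 8, and Col4a4 and Lama1 move less. Col6a4 lies between 0.72 and 0.78 in the plotted fits.

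When low genes were also kept in the miR-34 fit, so that 18664 genes with at least 1 read were tested, 4 chains passed an adjusted p of 0.05, as did 0.434% of all genes. These were Col8a1 (adjusted p = 5.82e-06), Col8a2 (2.54e-05), Col9a3 (0.00236) and Col6a4 (0.0141), all from edgeR with unchanged log2 fold changes of -2.28, -1.77, -0.76 and 0.76. Unadjusted p was under 0.05 for 4 higher (7.41% against 2.37%) and 12 lower chains of 54 (22.2% against 3.49%). The calls of Col8a1, Col8a2, Col9a3 and Col6a4 thus depended on the genes fitted with them.

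By class, the median log2 fold change after GFP-miR-34sp was 0.15 over 10 fibrillar chains, -0.11 over 15 basement membrane chains and -0.05 over 19 other chains, against 0.00 over all tested genes. Leaving out 1 mouse moved the fibrillar median to between 0.06 (without control mouse 8) and 0.27 (without control mouse 4), and the basement membrane median to between -0.18 (without control mouse 10) and -0.02 (without control mouse 8). Basement membrane values were below 0 for 11 of 15 chains, fibrillar values for 3 of 10 and values of the other chains for 10 of 19. Over all chains 24 of 44 (54.5%) were below 0, against 50.3% of all tested genes. The summed reads of the fibrillar class gave -0.02 in place of the median of 0.15, and Col1a1, Col1a2 and Col3a1 were the 3 fibrillar chains below 0. These medians describe chains of the same 6 mice, and no test was made between classes.

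The sponge effects were compared directly in 1 model of all 12 mice. No chain differed between them at an adjusted p under 0.05 in edgeR, where 0% of 12835 genes did. At an unadjusted p under 0.05, 6 of 45 chains did (13.3%) against 6.1% of all genes, 5 of them higher after GFP-miR-9sp (11.1% against 3.55%) and 1 lower (2.22% against 2.55%). The effect of GFP-miR-9sp exceeded that of GFP-miR-34sp for Col8a1 by 2.38 on the log2 scale (SE 0.69; edgeR adjusted p = 0.704), for Col8a2 by 1.89 (SE 0.56), for Col4a4 by 0.87 (SE 0.38), for Lama1 by 0.66 (SE 0.29) and for Lamc3 by 0.51 (SE 0.22). Col26a1 differed in the opposite direction, by -0.57 (SE 0.26). Without the 2 mice of each experiment with the highest choroid plexus sums, these differences were 0.16 for Col8a1, 0.46 for Col8a2, 0.65 for Col4a4, 0.35 for Lama1, -0.05 for Lamc3 and -1.02 for Col26a1, and of the 6 only that of Col26a1 kept an unadjusted p under 0.05. For chains with small errors the interaction was small too, with 0.01 (SE 0.10) for Col4a1 and 0.02 (SE 0.11) for Lamb1.

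Genes that modify, process, bind or degrade these chains were examined as a list of 69, of which 68 were in the table and 49 were tested. After GFP-miR-9sp 1 of 49 was higher and 0 were lower at an unadjusted p under 0.05 (2.47% and 2.26% of all tested genes), with a median log2 fold change of 0.02. The one was Smoc2, a calcium-binding matrix protein, at 705, 1083 and 765 scaled reads in controls and 968, 1336 and 1028 in sponge mice (0.41, SE 0.16; edgeR adjusted p = 0.97). After GFP-miR-34sp 0 were higher and 8 were lower (2.71% and 3.72% of all tested genes), 0 at an adjusted p under 0.05 in edgeR (0.064%), with a median of -0.12. Pcolce, which enhances cleavage of the procollagen C-terminus, measured 113, 128 and 285 in controls 10, 4 and 8 and 79.5, 69.5 and 83.3 in sponge mice (-1.17, SE 0.30; edgeR adjusted p = 0.412), again highest in control mouse 8. Loxl1, a cross-linking oxidase, measured 110, 126 and 109 against 84.9, 69.5 and 93.1 (-0.47, SE 0.14). The nidogens, which link laminin to collagen IV, were both among the 8, Nid2 at 68.9, 107 and 139 against 65.6, 57.2 and 67.6 (-0.71, SE 0.22) and Nid1 at -0.36 (SE 0.14). The laminin receptors Itga3 (-0.25, SE 0.08) and Bcam (-0.25, SE 0.09), the chaperone and prolyl hydroxylase subunit P4hb (-0.11, SE 0.04) and the protease inhibitor Timp3 (-0.22, SE 0.07) made up the rest.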

How the data were processed

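The authors sequenced libraries of hippocampal RNA as 50 bp single end reads and deposited raw counts for RefSeq transcripts, beside which the deposited files give transcript length in bases. The paper names mm9 and the submitters' processing notes name mm10 and STAR, and the counting rule and strand setting are not given in the sources used here. Of 32850 entries, 98.7% were joined to a symbol and summed. Titles reading GFP and a number were taken as miR-9 controls, since GFP34 and GFP9 are the only control names in the labels. Each mouse is a replicate. Genes above a mean of 10 scaled reads were tested by quasi-likelihood in edgeR 4.0.16 (TMM factors, R 4.3.3), with p-values adjusted by Benjamini-Hochberg over all tested genes. The SE is the absolute log2 fold change divided by the square root of F. Alternatives used DESeq2 1.42.0, limma 3.58.1 with a pseudocount of 1, other scalings and filters, and the study's criterion. That criterion was applied to reads summed per symbol with a GFP Ctrl mean above 10 scaled reads. Its numbers of genes called are not those the paper reports. Scripts were tested on simulated data. Members and lists were chosen with earlier results of these data known. Chains were named when the adjusted p was under 0.05, when among the 8 smallest p of an experiment or among the 3 highest of a class, and list genes when among the 3 smallest p or under the adjusted limit. Partner chains and all other genes named beyond this rule were chosen after their values were seen. A count of 0 allows up to 3 reads, which covers counting error only. Python 3.11.15, pandas 2.3.3 and matplotlib 3.10.9 made tables and figures.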

Additional observations from a re-analysis of the deposited data

How the results depend on the processing

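In the miR-9 experiment, the number of chains higher at an unadjusted p under 0.05 was 0 with all mice, 0 to 4 when 1 mouse was left out (4 without GFP-miR-9sp mouse 23) and 1 without both mice highest in choroid plexus markers. The number lower was 1 with all mice, 0 with DESeq2, with the study's criterion and in 1 model of 12 mice, 0 to 3 when 1 mouse was left out (3 without GFP-miR-9sp mouse 17, 0 without GFP-miR-9sp mouse 23 or GFP Ctrl mouse 8) and 3 without both. The lower chain was not always Col15a1. Without GFP-miR-9sp mouse 9 it was Col11a2, and without GFP Ctrl mouse 2 it was Col5a1. In the miR-34 experiment, the number at an adjusted p under 0.05 was 0, 4 with no filter and 0 to 3 when 1 mouse was left out (3 without GFP Ctrl mouse 10). The number higher was 1 with all mice, 4 with no filter, 2 with limma, 2 in 1 model of 12 mice (Col6a4 not among them), 1 to 3 when 1 mouse was left out and 3 without both. The number lower was 9 with all mice, 1 by the study's criterion, 5 with limma, 4 to 13 when 1 mouse was left out (4 without GFP-miR-34sp mouse 18, 13 without GFP Ctrl mouse 10) and 2 without both. For the difference between the sponge effects, the number higher after GFP-miR-9sp was 5, 8 with no filter, 2 to 8 when 1 mouse was left out and 0 without both mice of each experiment. The number lower was 1, 2 with RLE size factors, 3 with total counts, 4 with no filter, 0 with DESeq2 and 0 to 4 when 1 mouse was left out. Where no share of all genes is given above for a fit, that share was not counted. This holds for limma, the 1 model of 12 mice, most fits without 1 mouse and all alternatives for the difference. Counts of chains from those fits cannot be told apart from a change in the calls over all genes.

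The median of the fibrillar chains in the miR-34 experiment was -0.02 from summed reads, and that of the other chains was -0.19 from summed reads and -0.09 to 0.08 when 1 mouse was left out. Signs of chains that were not called changed in the miR-9 experiment. Leaving out 1 mouse gave Col4a3 -0.20 to 0.56, Col4a4 -0.07 to 0.29, Col6a4 -1.03 to 0.14, Col8a1 -0.63 to 0.39, Col8a2 -0.30 to 0.39, Col9a3 -0.44 to 0.11, Lama1 -0.12 to 0.26 and Lamc3 -0.01 to 0.27. Without GFP-miR-9sp mouse 17 the values of Col8a1 and Col8a2 were -0.63 and -0.30. Col8a1 was at -0.15 with limma. Without both mice highest in choroid plexus markers Col6a4 was at 0.14, Col8a1 at -0.61, Col8a2 at -0.10, Lama1 at -0.08 and Lamc3 at -0.05. In the miR-34 experiment Lama3 ranged from -0.16 to 0.02 when 1 mouse was left out, and Col15a1 was at 0.09 without both mice. The difference for Lamc3 was -0.05 without both mice of each experiment.

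No paired analysis was possible because the groups compared share fewer than 2 replicate numbers. The fits without both mice with the highest choroid plexus markers were chosen after seeing the data. For the chains with the smallest p, no other alternative changed the direction, and only Col8a1, Col8a2, Col9a3 and Col6a4 in the miR-34 experiment crossed the adjusted limit, with no filter or, for the first 3, without GFP Ctrl mouse 10. The cause of the changes was not tested. Chains with few reads, such as Col4a3 and Col4a4, limit what can be seen at this depth.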
